A study of Mus musculus with 8 samples.

Results

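CHD4 sites were examined at 36 genes of fatty acid use and oxidation, a list that runs from uptake at the cell surface to the last step of mitochondrial beta-oxidation and includes triglyceride storage and its regulators. A site belonged to a gene when it overlapped the gene body on build mm10 or the 10 kb on either side. All 36 genes were present among the 21887 protein-coding genes of the annotation. Joining peaks of the 4 libraries that shared 1 bp or more gave 121267 sites, and 96605 of these lay at a protein-coding gene. The 36 genes held 291 of them, from 1 site at Acot2 to 26 sites at Cd36. A site was called a gene-end site when it came within 1 kb of either end of the gene, an internal site when it lay elsewhere in the body, and a flanking site otherwise.

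CHD4 is a helicase that uses ATP to remodel chromatin in the NuRD complex, which couples nucleosome remodelling with histone deacetylation at promoters and enhancers. Cardiac muscle takes up fatty acids through CD36 and the transporter SLC27A1, carries them on the binding protein FABP3, activates them to acyl-CoA, moves them into mitochondria on carnitine and shortens them by beta-oxidation. Electrons from that cycle reach the respiratory chain partly through the electron transfer flavoprotein. The transcription factor TBX5, of the T-box family, maintains atrial gene expression.

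The mice of both groups were homozygous for floxed Tbx5 and were injected with AAV9 on postnatal day 2. Going by the titles, the control group received Nppa-EGFP and the TBX5 KO group received Nppa-Cre, in which sequence of Nppa, an atrial cardiomyocyte gene, drives the recombinase. Right and left atria were dissected and frozen, and the labels give the cell type as mixed, so atrial cells in which Nppa is not active are part of each library. The sources used here do not give the age at collection. Each group had 2 CHD4 ChIP libraries with a peak list each, called control 1, control 2, TBX5 KO 1 and TBX5 KO 2 here. Whether a library came from 1 animal or several is not stated, so the spread between replicates may be technical. In the genotype and treatment labels of these libraries the group names are swapped, and the treatment text names CHD4 as the deleted gene. Every direction given here rests on the titles. A CHD4 peak measures neither RNA nor deletion, so the lists can check neither the tissue nor the loss of Tbx5. Less CHD4 per cell cannot be told apart from fewer cells that carry it. Whether the enrichment achieved by the ChIP differed between the libraries was not tested.

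The control lists held 99924 and 91520 peaks, and those titled TBX5 KO 61173 and 69557. The files give no read totals, and the depth is known only through the pileup, the number of fragments stacked at a summit, which was recovered from the authors' fold and −log10 p. The genome background pileup was 10.1, 10.3, 10.7 and 13.4 in control 1, control 2, TBX5 KO 1 and TBX5 KO 2. A pileup divided by that background is called a level here. The lowest level that could be called where local background did not exceed it was 2.08, 2.04, 2.06 and 1.94, so the threshold was similar in the 4 libraries. Over all protein-coding genes, the control libraries called 1.61 times as many sites as the TBX5 KO libraries.

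Transcription starts were listed for 29 of the 36 genes, with 34 windows between them, in RefSeq promoters of GRCm38.p6. For 27 of these genes, all 4 libraries called a site within 1 kb of a listed start, although not every peak covers the start itself. The same share over all genes with a listed start was not computed. The 250 bases before the start are shown for 5 of the 27, written 5′ to 3′ in the direction of transcription. Fabp3, Acsl1, Hadhb and Cd36 are shown because they were among the genes with the most control-only sites (called in both controls but in neither TBX5 KO library), and Echs1 because it had none. Their positions are chr4:130308488-130308737 on the plus strand for Fabp3, chr8:46470787-46471036 on the plus strand for Acsl1, chr5:30155003-30155252 on the plus strand for Hadhb, chr5:17835897-17836146 on the minus strand for Cd36 and chr7:140116422-140116671 on the minus strand for Echs1. Capitals mark the motif matches described after the sequences.
Fabp3: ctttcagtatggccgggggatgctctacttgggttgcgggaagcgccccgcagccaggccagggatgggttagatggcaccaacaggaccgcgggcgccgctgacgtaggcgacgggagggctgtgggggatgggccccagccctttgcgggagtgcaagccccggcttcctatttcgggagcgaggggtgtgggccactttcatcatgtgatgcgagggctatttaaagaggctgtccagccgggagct
Acsl1: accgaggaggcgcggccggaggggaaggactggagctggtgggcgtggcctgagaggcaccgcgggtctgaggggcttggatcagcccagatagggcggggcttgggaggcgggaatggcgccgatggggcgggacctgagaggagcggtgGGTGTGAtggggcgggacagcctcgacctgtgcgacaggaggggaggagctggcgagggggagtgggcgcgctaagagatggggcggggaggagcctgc
Hadhb: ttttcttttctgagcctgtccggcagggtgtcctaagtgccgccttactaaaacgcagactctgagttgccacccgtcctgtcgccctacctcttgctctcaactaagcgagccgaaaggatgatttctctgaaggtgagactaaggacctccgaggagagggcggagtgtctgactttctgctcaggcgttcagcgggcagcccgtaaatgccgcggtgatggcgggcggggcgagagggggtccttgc
Cd36: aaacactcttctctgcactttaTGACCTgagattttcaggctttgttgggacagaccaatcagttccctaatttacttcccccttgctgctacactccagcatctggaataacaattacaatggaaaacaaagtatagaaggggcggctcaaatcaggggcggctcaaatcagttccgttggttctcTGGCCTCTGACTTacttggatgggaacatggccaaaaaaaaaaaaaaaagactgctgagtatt
Echs1: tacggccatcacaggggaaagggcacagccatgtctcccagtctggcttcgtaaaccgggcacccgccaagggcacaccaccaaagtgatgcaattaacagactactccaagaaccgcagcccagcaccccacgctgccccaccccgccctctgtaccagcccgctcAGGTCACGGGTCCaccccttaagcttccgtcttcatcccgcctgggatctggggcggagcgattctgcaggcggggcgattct

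Promoter windows of 250 bases before to 50 bases after each listed start were searched on both strands for the nuclear receptor hexamer AGGTCA, its extended form AAGGTCA, the T-box sequence GGTGTGA, the GATA sequence AGATAA, and a direct repeat of the hexamer with 1 base between, allowing 2 mismatches. The extended form always contains the hexamer, and the repeat often does. In the sequences shown, Cd36 held TGACCT, the hexamer on the opposite strand, at base −228 counted from the start, and the repeat as TGGCCTCTGACTT from base −63. Echs1 held the repeat as AGGTCACGGGTCC from base −83, and Acsl1 held GGTGTGA from base −99. No letters are in capitals for Fabp3 and Hadhb, whose windows held none of the 5 patterns.

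The repeat, the arrangement bound by PPAR and RXR receptors that regulate many fatty acid genes, was present in 6 of the 34 windows (17.6%) and in 3.32% of 21263 windows of all protein-coding genes. The 6 windows belonged to Cd36, Echs1, Etfa, Plin2, Slc25a20 and Ucp3. AGGTCA was present in 10 of 34 (29.4%) and in 14.7% of all windows. GGTGTGA was present in 2 of 34 (5.88%), at Acsl1 and Slc27a1, and in 3.68% of all windows. AAGGTCA stood in 2 of 34 (5.88%, against 4.08%) and AGATAA in 3 of 34 (8.82%, against 9.65%). The median GC content was 60.7% over the 34 windows of these genes and 56.3% over all windows, and matches are descriptions of letters, not of bound sites.

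The 36 genes carried more called CHD4 sites in control than in TBX5 KO libraries. Control 1 called 233 of the 291 sites and control 2 called 219, while TBX5 KO 1 called 125 and TBX5 KO 2 called 142. The means were 226.0 ± 9.9 and 133.5 ± 12.0 (SD, n = 2 each), and the groups did not overlap. The difference of 92.5 sites had p = 0.333 in a two-sided exact permutation test, the smallest p that 2 libraries against 2 can give. The ratio of 1.69 stood beside 1.61 over all protein-coding genes, and the share of each library's gene sites that fell at these genes was 0.311%, 0.329%, 0.307% and 0.3%. Fewer sites were thus called in the TBX5 KO libraries over the genome as well, and in similar proportion.

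At single genes, 22 of 36 (61.1%) had fewer sites in both TBX5 KO libraries than in both control libraries, and 0 had more. Of all protein-coding genes with a site, 42.0% had fewer. Gene-end sites called in all 4 libraries were present at 34 of the 36 (94.4%), all but Ucp3 and Eci2, beside 55.0% of all protein-coding genes. The 55.0% is taken over all 21887 genes, of which 16191 had a site in any library. Each of the 36 had a site, so the shares are not of like sets of genes. The site at the start of Ucp3, a mitochondrial uncoupling protein gene, had a pileup of 35, 35 and 34 in control 1, control 2 and TBX5 KO 1 and was not called in TBX5 KO 2. The gene-end site of Eci2, which encodes an enoyl-CoA isomerase, was not called in TBX5 KO, but its listed start lies inside the gene and was called in all 4 libraries with pileups of 131, 156, 82 and 123.

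Of the 291 sites, 177 were called in both control libraries. Of those 177, 99 were called in all 4 libraries, 30 in 1 TBX5 KO library as well, and 48 in neither TBX5 KO library. The 48 control-only sites made up 27.1% (95% Wilson interval 21.1 to 34.1%, which covers counting error only), and the same share over all sites at protein-coding genes was 24.3%. Sites were ranked by their percentile in −log10 p, averaged over control 1 and control 2, and split into 10 deciles. The shares among all gene sites of the same decile would give 39.5 control-only sites of 177. At least 1 control-only site was present at 24 of the 36 genes (66.7%), and at 45.4% of all protein-coding genes with a site in both controls. The 36 genes also had more sites, with a median of 4.0 sites in both controls against 3.0 for all genes with at least 1. No site was called in both TBX5 KO libraries and neither control, 0 of 101, and the share over all genes was 1.74%. Taking 3 counts as the limit for a count of 0, this allows a share of up to 2.97%. That limit treats sites as independent, which neighbouring sites of 1 gene are not.

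**Figure D1:**
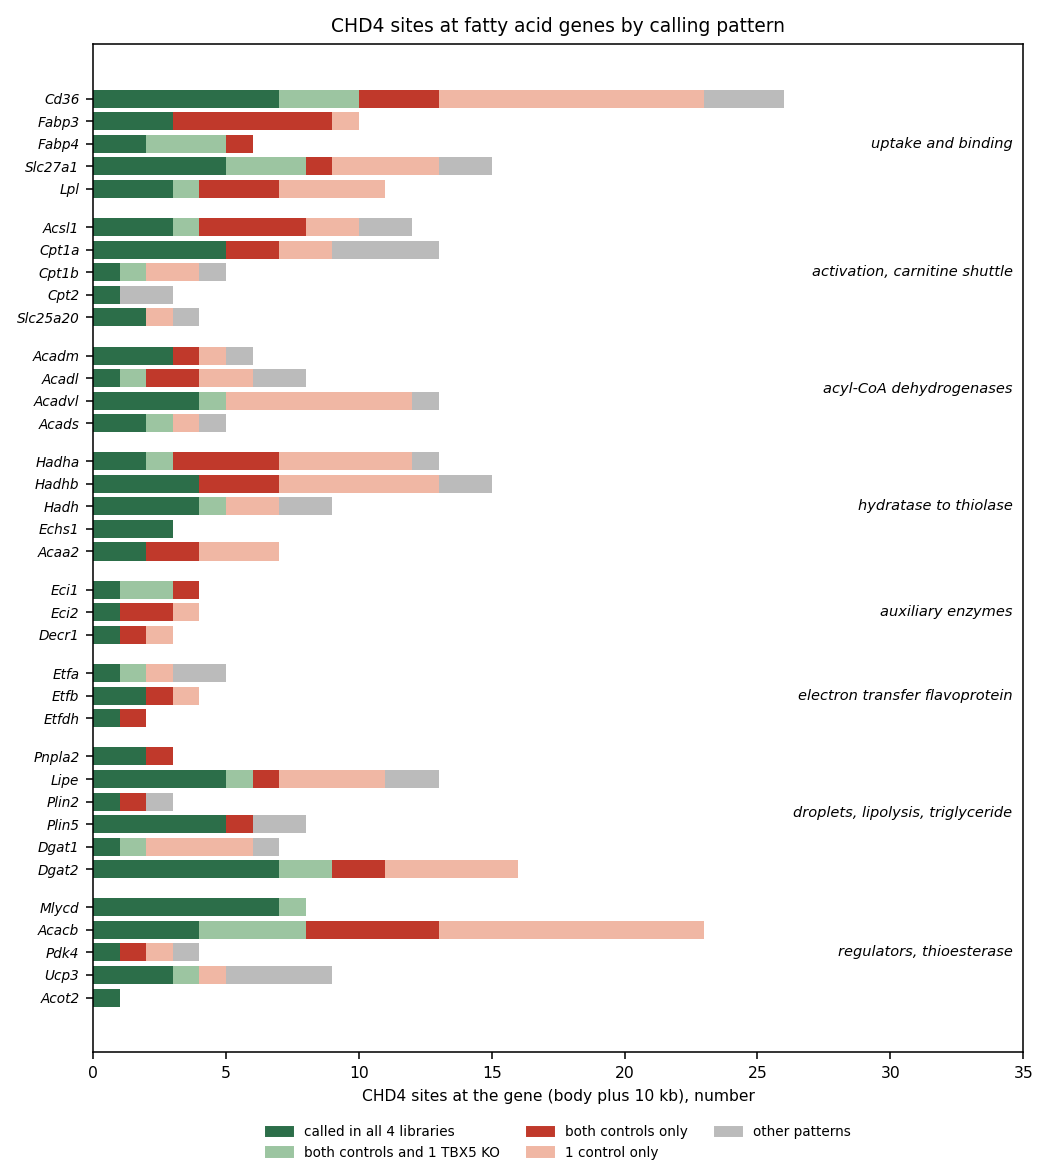
CHD4 sites at each of the 36 genes (horizontal axis, number of sites in the gene body plus 10 kb) by the libraries that called them, with genes grouped by role. Green marks sites called in all 4 libraries and red marks sites called in both controls and neither TBX5 KO library; Fabp3 has 6 red sites, and Mlycd has none. Sites shared by Hadha and Hadhb are drawn at both genes.

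The place of a site in the gene went with whether it was called in TBX5 KO. Gene-end sites numbered 50, 48, 42 and 40 in control 1, control 2, TBX5 KO 1 and TBX5 KO 2, a ratio of 1.2 beside 1.15 over all protein-coding genes. Internal sites numbered 109, 106, 38 and 54, or 107.5 ± 2.12 against 46.0 ± 11.3 (SD, n = 2 each), a ratio of 2.34. The ratio for internal sites over all protein-coding genes was 1.83. Flanking sites numbered 74, 65, 45 and 48, a ratio of 1.49 beside 1.55 over all genes. The groups did not overlap in any of the 3 places, and each had p = 0.333 in the two-sided exact permutation test.

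Of the sites in both controls, 3 of 44 gene-end sites were control-only (6.82%, Wilson 2.35 to 18.2%), close to 6.79% over all gene-end pairs. With any 1 of the 4 libraries left out that share was 11.4 to 14.0%, beside 8.82 to 14.8% over all genes, and with gene ends of 2.5 kb it was 17.6%, beside 11.6%. Of the internal sites, 32 of 74 were control-only (43.2%, Wilson 32.6 to 54.6%), with 30.9% over all internal pairs of a site and a gene below the lower bound. Their control ranks would give 22.1 such sites. Of the flanking sites, 13 of 59 were control-only (22.0%, Wilson 13.4 to 34.1%), and the share over all flanking pairs was 20.9%. Neighbouring sites of 1 gene are not independent, so these intervals are too narrow for a statement about genes. With the 4 lists shortened to the same number of strongest peaks, 12 of 43 internal sites were control-only (27.9%), beside 19.1% over all internal pairs. No interval and no value from control ranks was computed in that setting, so whether this gap exceeds counting error is not given.

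Starts were the places where calls differed least. Within 1 kb of a listed start, the libraries called 31, 29, 29 and 29 sites. With these tied counts every split of the libraries gives the same difference, so the exact permutation test (p = 1.0) cannot tell the groups apart here. None of the 29 start sites in both controls was control-only, which allows a share of up to 10.3% by the same 3-count rule, and the share over all genes was 3.42%. These sites were strong in control, and their control ranks would give 2.67%, or 0.773 sites. The 69 internal sites in both controls away from any listed start included all 32 internal control-only sites (46.4%, Wilson 35.1 to 58.0%), where control ranks would give 31.8%. Flanking sites that coincided with the end of a neighbouring gene were control-only in 1 of 20 cases (5.0%), and other flanking sites in 12 of 39 (30.8%), where the control ranks of the sites would give 14.2% and 27.3%. Many sites are not particular to these genes by position. Of the 291, 124 also lay in the region of another gene, and of those in both controls 15 of 83 (18.1%) were control-only, against 33 of 94 (35.1%) of the sites in no other gene's region, where control ranks would give 20.3% and 24.1%. The same splits over all genes were not computed.

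**Figure D2:**
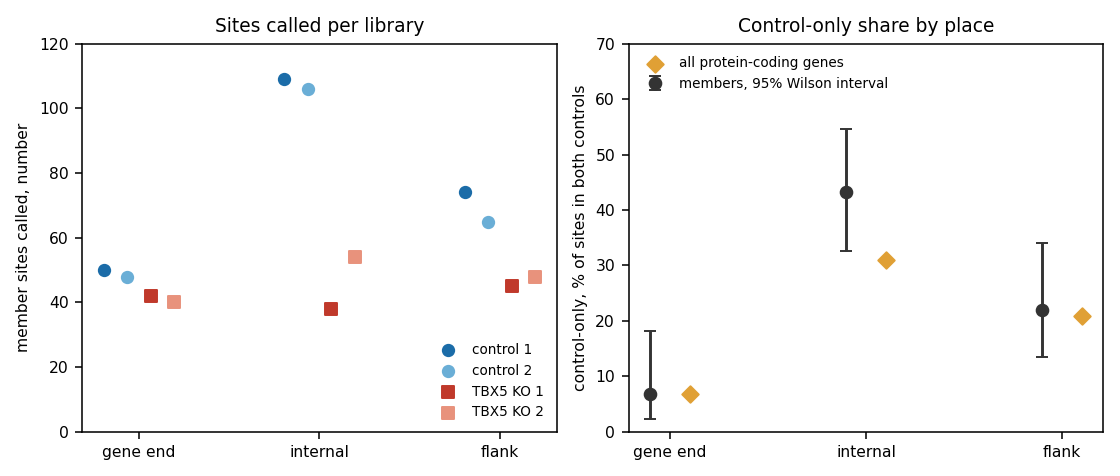
Left, number of sites of the 36 genes called in each library at gene ends, inside genes and in flanks. Right, control-only share of the sites in both controls (black, 95% Wilson interval) beside that over all protein-coding genes (diamonds, site and gene pairs). The internal share of 43.2% lies above 30.9%, and the gene-end shares nearly coincide.

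Control-only sites were mostly weak sites in control. Their median control level was 3.09 (range 2.46 to 7.06), that of sites also called in 1 TBX5 KO library 3.58, and that of sites called in all 4 libraries 7.71 (range 2.45 to 26.5). They were also narrower, with a median width of 554 bp against 1627 bp. The same held over all gene sites. There, control-only sites had median levels of 3.26 in control 1 and 3.12 in control 2 and a median width of 499 bp. Sites called in all 4 libraries had 6.43, 6.04 and 1265 bp. The counts that follow were not computed over all genes. If each control level were multiplied by the median ratio of 0.643 over all gene sites called in all 4 libraries, 25 of the 48 control-only sites would lie under 2.0, the mean of the lowest called levels of the TBX5 KO libraries, as would 7 of the 30 sites called in 1 TBX5 KO library and 4 of the 99 called in all 4. Of the 48, 11 ranked in the upper part of the control lists (percentile of −log10 p of at least 50) and 1, at Cd36, ranked at 75 or above. A site that was not called may still hold CHD4 under the threshold.

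**Figure D3:**
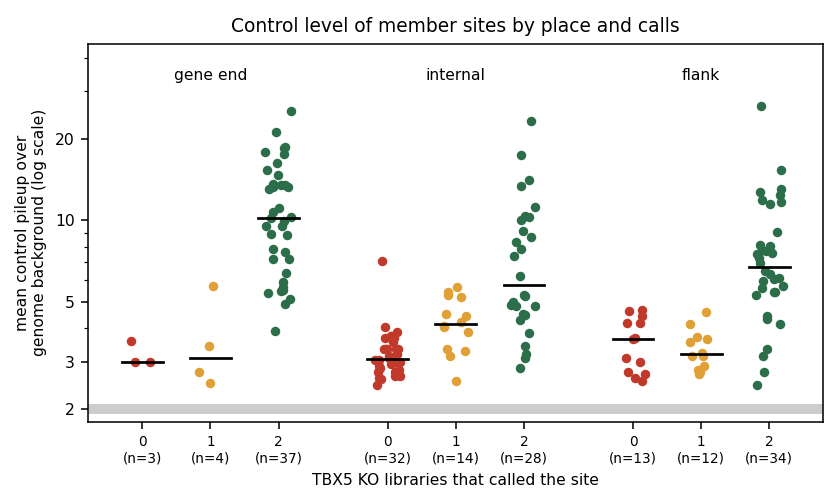
Mean control level (pileup over genome background, log scale) of the 177 sites in both controls, by place and by the number of TBX5 KO libraries that called the site; each point is a site, black lines are medians, and the grey band spans the lowest levels called in the 4 libraries (1.94 to 2.08). Among the internal sites that no TBX5 KO library called, 1 site, at Cd36, stands at 7.06 and the others lie closer to the band.

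At the 99 sites called in all 4 libraries, levels were lower in TBX5 KO. The median level was 8.01 in control 1, 7.59 in control 2, 4.40 in TBX5 KO 1 and 4.47 in TBX5 KO 2. The median ratio of TBX5 KO to control was 0.598 (interquartile range 0.517 to 0.726, range 0.344 to 1.11), beside 0.643 over all gene sites. The level was lower in both TBX5 KO libraries than in both controls at 93 of 99 sites (93.9%), beside 88.7% over all genes, and higher in both at 2 (2.02%), beside 0.563%. Those 2 sites were a flanking site of Dgat2 and a flanking site of Mlycd. Ratios were computed only where both TBX5 KO libraries called the site, which took a level of about 2.0. At sites that were weak in control the ratio could therefore not fall far. By place the median ratio was 0.598 at 37 gene-end sites, 0.589 at 28 internal sites and 0.646 at 34 flanking sites, while over all genes it was 0.606, 0.666 and 0.642.

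**Figure D4:**
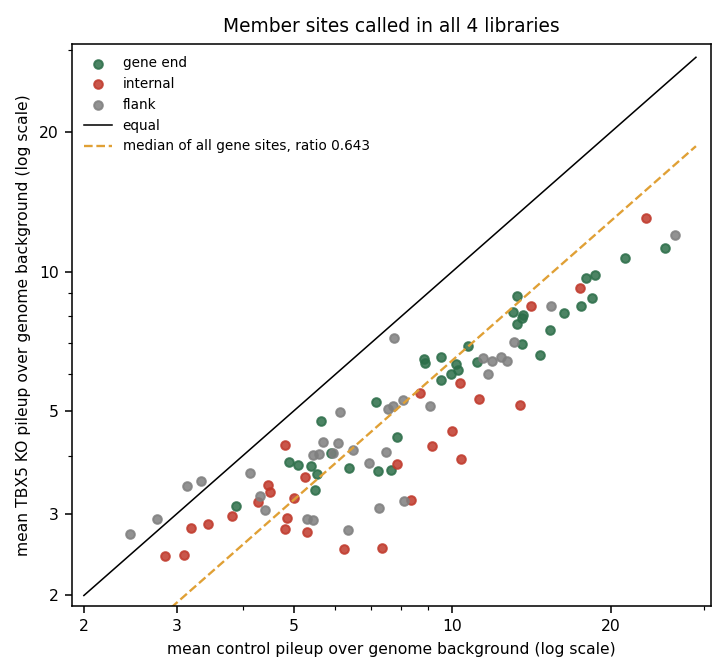
Mean TBX5 KO level against mean control level (pileup over genome background, log scales) at the 99 sites called in all 4 libraries, coloured by place. Most points lie near the dashed line, the median ratio of 0.643 over all gene sites, and 4 flanking sites lie on or above the solid line of equal levels.

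Genes of uptake and binding (Cd36, Fabp3, Fabp4, Slc27a1 and Lpl) had 14 control-only sites among 44 in both controls (31.8%). The Wilson interval of this share held the 24.3% over all gene sites, as did that of each other role group. Each interval also held the share that the control ranks of its sites would give. The uptake genes' sites in all 4 libraries had a median ratio of 0.542, the lowest of the 8 role groups. Genes of the electron transfer flavoprotein were close, at 0.546 from 4 sites, and differences between role groups were not tested. Fabp3, the fatty acid binding protein of heart muscle, at chr4:130308738-130315463, led the 36 genes in control-only sites, with 6 of 9. The libraries called 9, 10, 3 and 3 sites there. The site that spans its start had highest pileups of 81, 66, 45 and 43, a level ratio of 0.514. A peak covered the start itself in both controls. The TBX5 KO peaks in that site ended upstream of the start, at base −124 in TBX5 KO 1 and base −1302 in TBX5 KO 2. An internal site at chr4:130312129-130314132 had pileups of 64, 86, 27 and 34, with 95% Poisson intervals of 49.3 to 81.7, 68.8 to 106.0, 17.8 to 39.3 and 23.5 to 47.5. Its level ratio of 0.344 was the lowest of the 99 sites, and the intervals cover counting error only, not the spread between libraries. The control-only sites of Fabp3 lay downstream of the start, 2 inside the gene, 2 at its far end and 2 beyond it, with pileups of 26 to 50. All 6 also lie in the region of the neighbouring gene Zcchc17. The strongest was chr4:130323406-130324764, with pileups of 50 and 44.

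Cd36, the fatty acid translocase, spans chr5:17781690-17888959 and had 26 sites, of which 16, 21, 10 and 10 were called. All 13 sites in both controls lay upstream of the listed start or at it, and 0 lay downstream, although the annotated gene extends on both sides of that start. The start site had pileups of 85, 102, 43 and 59, a level ratio of 0.459. Of the 13 sites, 3 were control-only. The strongest control-only site of all 36 genes was among them, at chr5:17849502-17850043, with its middle at base −13876 from the start and pileups of 63 (Poisson 48.4 to 80.6) and 81 (64.3 to 101.0) in the controls, or levels of 6.23 and 7.89. Among Cd36 sites in both controls with a lower level, 4 were called in all 4 libraries, such as chr5:17853939-17854990 with pileups of 37, 33, 30 and 39. Another 3 were called in 1 TBX5 KO library, and the remaining ones were control-only.

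The other uptake genes differed from each other. Lpl, which encodes lipoprotein lipase, had 3 control-only sites of 7, and an internal site at chr8:68901426-68903827 with pileups of 97, 115, 42 and 53, a level ratio of 0.379 that was next after that of Fabp3. At Fabp4, the binding protein known from adipocytes and capillary endothelium, 3 of 6 sites were called in TBX5 KO 1 but not in TBX5 KO 2, and 1 more was control-only. Slc27a1, a fatty acid transport protein, had 1 control-only site of 9, and the site around its listed starts had pileups of 93, 88, 72 and 80, a ratio of 0.715. Its flanking site at chr8:71558360-71559515 had a ratio of 1.06, with control levels of 2.87 and 3.8 that overlap the TBX5 KO levels of 2.9 and 4.18.

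Genes of activation and the carnitine shuttle (Acsl1, Cpt1a, Cpt1b, Cpt2 and Slc25a20) had 6 control-only sites of 20 (30.0%), and all 6 were at Acsl1 and Cpt1a. Acsl1, the main long-chain acyl-CoA synthetase of heart, at chr8:46471037-46536051, had 4 control-only sites of 8, all internal and all with control pileups of 30 to 41. Its start site was strong, with pileups of 202, 178, 93 and 147 and a ratio of 0.527. A start listed inside the gene lay in a site with pileups of 57 and 54 in control and 31 in TBX5 KO 2, which was not called in TBX5 KO 1. Cpt1a encodes the liver form of the rate-limiting carnitine palmitoyltransferase. Of its 7 sites 2 internal ones were control-only, while 3 other internal sites were called in all 4 libraries, the strongest with pileups of 114, 96, 57 and 83. Cpt1b, the muscle form, had 2 sites in both controls, both at gene ends. The weaker had pileups of 54 and 63 in control, 31 in TBX5 KO 2 and no call in TBX5 KO 1, and the other had 115, 112, 74 and 78. Cpt2, the inner membrane transferase, and Slc25a20, the carnitine carrier, had 1 and 2 sites in both controls, all called in all 4 libraries. The start site of Cpt2 had pileups of 148, 122, 77 and 110, a ratio of 0.581. That of Slc25a20 had 95, 85, 73 and 82, a ratio of 0.732, and so stood closer to its control level.

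The acyl-CoA dehydrogenases (Acadm, Acadl, Acadvl and Acads), which start each round of beta-oxidation for chains of different length, had 3 control-only sites of 16 (18.8%). All 4 start sites were called in every library. Their pileups in control 1, control 2, TBX5 KO 1 and TBX5 KO 2 were 201, 163, 108 and 124 at Acadm, 145, 121, 88 and 109 at Acadl, 147, 129, 83 and 109 at Acadvl, and 95, 99, 53 and 90 at Acads. In levels, each of the 4 was lower in both TBX5 KO libraries than in both controls, with ratios of 0.541, 0.626, 0.586 and 0.613. Acadvl and Acads had no control-only site among 5 and 3. The strongest flanking site of Acadvl, with pileups of 265, 275, 125 and 165, spans parts of the regions of Ctdnep1, Dvl2, Gabarap and Phf23 and cannot be assigned to 1 gene. Acadl had 2 control-only sites of 4 and Acadm 1 of 4.

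Genes of the hydratase, trifunctional protein, hydroxyacyl-CoA dehydrogenase and thiolase steps (Hadha, Hadhb, Hadh, Echs1 and Acaa2) had 7 control-only sites of 22 (31.8%). Hadha (chr5:30119423-30154980) and Hadhb (chr5:30155253-30184593) encode the subunits of the mitochondrial trifunctional protein and are transcribed away from each other. Both starts lay in 1 site, chr5:30153334-30156891, with pileups of 160, 140, 71 and 88, a ratio of 0.448. It was flanked on either side by a control-only site, with pileups of 36 and 46 on the Hadha side and 35 and 41 on the Hadhb side. Hadha had 4 control-only sites of 7 and Hadhb 3 of 7, these 2 sites counting for both genes. The 10 sites that the 2 genes share are the only ones shared by members.

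Hadh, the medium- and short-chain hydroxyacyl-CoA dehydrogenase, had 5 sites in both controls and none was control-only, 4 of them internal. Its internal site at chr3:131266164-131267402 nevertheless had pileups of 86, 84, 29 and 50, a ratio of 0.386, while the site at its start had 82, 78, 39 and 69, a ratio of 0.56. Echs1, the short-chain enoyl-CoA hydratase, had 3 sites, and every library called all 3. The pileups at its start were 95, 99, 68 and 90, and its flanking sites lie in the regions of Fuom, Prap1 and Paox. Acaa2, a mitochondrial thiolase, had the strongest gene-end site of the 36 genes, with pileups of 267, 249, 123 and 148. The levels there were 26.4, 24.2, 11.5 and 11.0, a ratio of 0.445, the lowest at any of the 37 gene-end sites called in all 4 libraries. Both its flanking sites were control-only.

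The auxiliary enzymes of unsaturated fatty acids (Eci1, Eci2 and Decr1) had 4 control-only sites of 9, and the genes of the electron transfer flavoprotein and its dehydrogenase (Etfa, Etfb and Etfdh) had 2 of 7. Decr1, which encodes a dienoyl-CoA reductase, had 1 internal control-only site with pileups of 34 and 45, and a gene-end site with 114, 95, 69 and 78. The start site of Eci1 had pileups of 169, 163, 83 and 114, a ratio of 0.499. The control-only gene-end site of Eci2 was weak, with pileups of 33 and 40. Start sites of the flavoprotein genes were called in every library. Etfdh had pileups of 189, 187, 99 and 111 at its start, a ratio of 0.475, and Etfb had 172, 141, 82 and 98, a ratio of 0.487. Etfa, with 98, 105, 60 and 86, had a ratio of 0.604. The control-only site of Etfdh, with pileups of 46 and 49, lies beyond its far end in the region of Ppid.

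Genes of lipid droplets, lipolysis and triglyceride synthesis (Pnpla2, Lipe, Plin2, Plin5, Dgat1 and Dgat2) had 6 control-only sites of 31 (19.4%). Pnpla2, adipose triglyceride lipase, lay under the widest site of the 36 genes, 17974 bp, which also covers neighbouring genes. Its pileups were 113, 105, 68 and 100. Lipe, hormone-sensitive lipase, had 1 control-only site of 7, and its 3 other internal sites were called in all 4 libraries, with ratios of 0.452, 0.472 and 0.527. At Dgat2, which makes triglyceride from diacylglycerol, 7 of 11 sites were called in all 4 libraries and ratios ranged widely. An internal site at chr7:99157334-99160261 had pileups of 59, 68, 30 and 30, a ratio of 0.405. A flanking site at chr7:99146923-99147694, also in the region of Uvrag, had pileups of 24, 26, 31 and 34, a ratio of 1.11 with levels of 2.37 and 2.53 in the controls, below the 2.9 and 2.54 in TBX5 KO. The gene-end site of Dgat1 had 214, 219, 99 and 162, a ratio of 0.502. Plin2 and Plin5, which coat lipid droplets, had 1 control-only site each, both internal. The start site of Plin2 had pileups of 77, 69, 61 and 64, a ratio of 0.731. Plin5 lies beside Plin4, and its flanking site at chr17:56097685-56104248, also in the regions of Hdgfl2 and Plin4, had 69, 96, 34 and 43, a ratio of 0.395.

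Regulators and the thioesterase (Mlycd, Acacb, Pdk4, Ucp3 and Acot2) had 6 control-only sites of 28 (21.4%) and a median ratio of 0.682, the highest of the 8 role groups. This median came from 16 sites, 7 of them at Mlycd. Some of these were weak in control, where the ratio could not fall far in sites called by every library. Acacb and Mlycd encode the enzymes that make and break malonyl-CoA, the inhibitor of carnitine palmitoyltransferase, and the calls at the 2 genes differed. Acacb, at chr5:114146321-114250761, had 5 control-only sites of 13, all internal, and the libraries called 21, 15, 4 and 8 sites there. It held the strongest internal site of all 36 genes, chr5:114173514-114177511, with pileups of 270, 204, 148 and 165 and a ratio of 0.561. The next site, chr5:114177852-114181138, had 141, 133, 56 and 68, a ratio of 0.383. The control-only sites of Acacb were weak, with control pileups of 25 to 38. No site was called at its listed start, and the site at the 5′ boundary of the annotated body, with its middle at base −18634 from that start, had pileups of 64, 66, 44 and 46.

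Mlycd, malonyl-CoA decarboxylase, at chr8:119394852-119421838, had 8 sites, of which the libraries called 8, 8, 7 and 8. None was control-only, and the site not called in TBX5 KO 1 had pileups of 43, 43 and 30 in the others. The start site had pileups of 148, 122, 91 and 123, a ratio of 0.667, and the internal site at chr8:119412139-119413253 had 49, 49, 45 and 57, a ratio of 0.88. The median ratio over its 7 sites in all 4 libraries was 0.845. Of its 4 flanking sites, all in the region of Osgin1, 2 had ratios of 1.1 and 1.06 and the other two 0.693 and 0.739. In the former, at chr8:119424749-119425248, the pileups were 31, 33, 37 and 46, and the levels of 3.46 and 3.43 in TBX5 KO were above 3.07 and 3.21 in control. The Poisson intervals of the pileups there overlapped between all 4 libraries, 21.1 to 44.0 in control 1 and 26.1 to 51.0 in TBX5 KO 1. Pdk4, a kinase that restrains pyruvate oxidation, had pileups of 183, 175, 95 and 107 at its start, a ratio of 0.48, and 1 control-only flanking site. Ucp3 had 4 sites in both controls and none was control-only. Its internal site had pileups of 44, 48, 34 and 47, a ratio of 0.741, and the stronger of its flanking sites, with 123, 136, 68 and 87, lies in the regions of Dnajb13 and Ucp2. Acot2, a mitochondrial thioesterase, had 1 site, at its start, with pileups of 54, 56, 39 and 53.

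**Figure D5:**
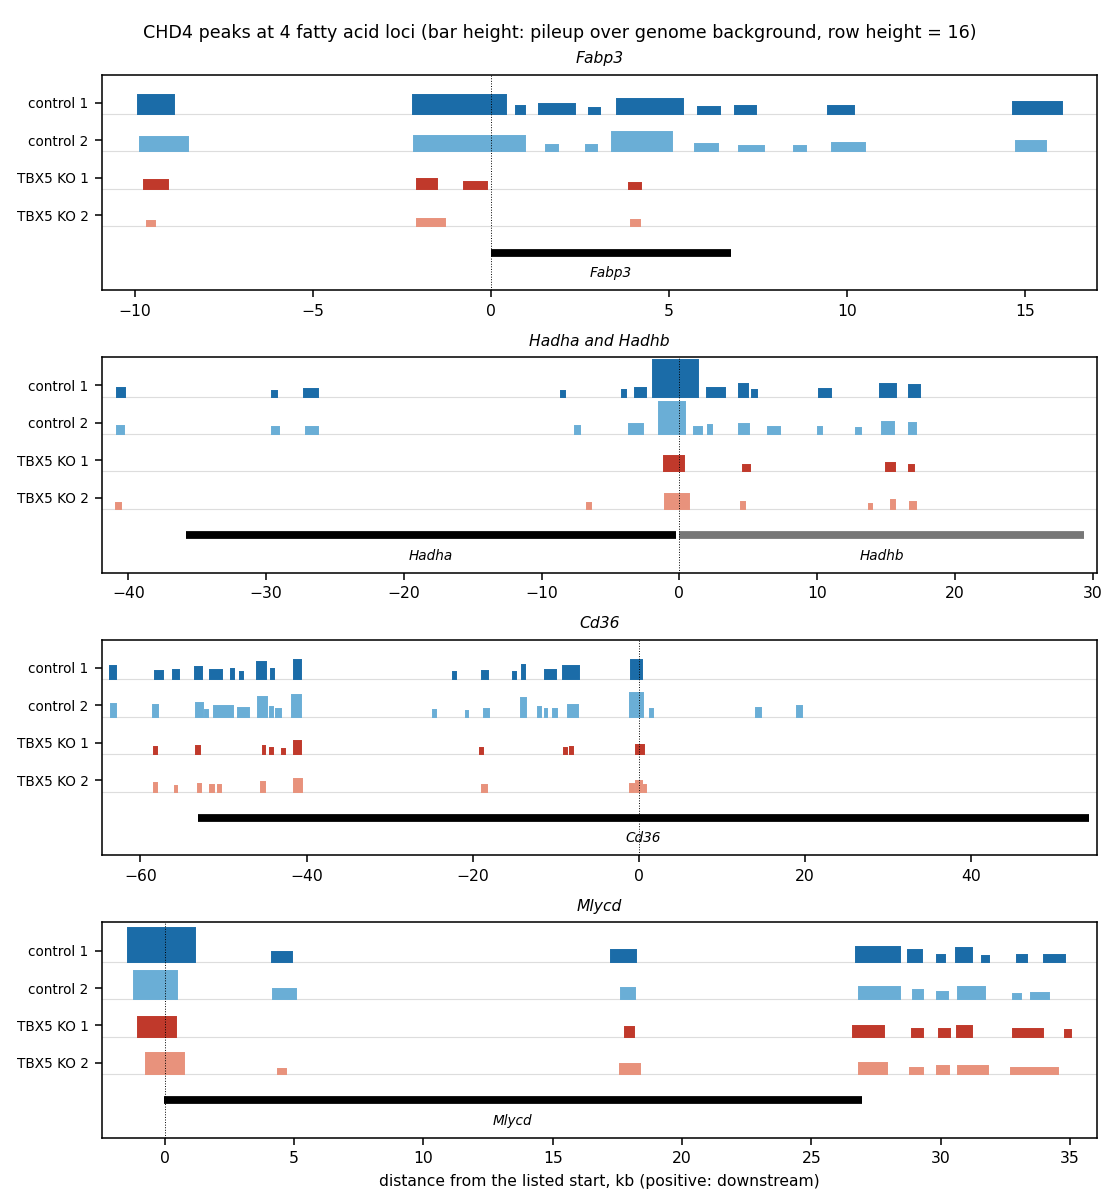
CHD4 peaks in each library at Fabp3, Hadha with Hadhb, Cd36 and Mlycd, by distance from the listed start in kb (for the pair, that of Hadhb); bar height is the pileup over genome background and thick lines are gene bodies. Peaks downstream of the Fabp3 start are mostly absent from the TBX5 KO rows, whereas those of Mlycd are present in nearly every row.

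Other genes of fatty acid metabolism had a control-only share close to the 27.1% of the 36 genes. In a list of 40 such genes, 45 of 164 sites were control-only (27.4%, Wilson 21.2 to 34.7%), an interval that holds the 24.3% over all gene sites. The control ranks of these sites would give 34.9 control-only sites. The libraries called 215, 198, 109 and 128 sites there. Among marker genes of the cell types an atrial sample can hold, the control-only share was 29 of 82 (35.4%) for 6 cardiomyocyte genes, 4 of 23 (17.4%) for 6 adipocyte genes, 9 of 53 (17.0%) for 6 endothelial genes and 5 of 37 (13.5%) for 6 fibroblast genes, with 24.3% over all gene sites. The control ranks of these sites would give 26.8%, 18.4%, 26.0% and 31.3%. The Wilson intervals held these values for cardiomyocyte (25.9 to 46.2%), adipocyte (6.98 to 37.1%) and endothelial genes (9.2 to 29.2%). For fibroblast genes the interval of 5.91 to 28.0% lay below its value. Sites of 1 gene are not independent, so these intervals are too narrow for a statement about cell types. Whether the mixture of cell types differed between the libraries was not tested.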

How the data were processed

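CHD4 ChIP-seq peak lists of 4 libraries of mouse atria were used. Input libraries were not used here by themselves. Per the submitters' processing notes, MACS2 and DiffBind were used and the build was mm10; for the aligner and the call settings, the sources used here state nothing. Each deposited list holds the peaks of 1 library with a score, a fold over local background (a ratio), a −log10 p and a −log10 q, all as the authors' peak caller gave them. The lowest deposited −log10 q was 1.3 to 1.31, which sets the call threshold. Fold and −log10 p together fix a whole-number pileup under a Poisson model, with 1 added to both pileup and background in the fold. This recovered 99.971 to 99.998% of the peaks of a list, with a tolerance of 0.1% in −log10 p up to 300.0. Where a library had more than 1 peak in a site, the peak with the highest pileup gave its value, wherever it lay in the site. These levels are estimates.

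Gene bodies were read from a RefSeq table of GRCm38.p6, the assembly behind mm10, which gives gene bodies without exons or introns, so whether a site is exonic or intronic is not given. Starts and promoter sequence came from a RefSeq promoter table of the same assembly. Sites were merged, assigned and counted with Python 3.11.15, numpy 2.4.6, pandas 2.3.3 and scipy 1.17.1, and the steps were tested on simulated data. Libraries were compared with the two-sided exact permutation test, and shares of sites with those over all protein-coding genes, without a test over sites. Poisson and Wilson intervals cover counting error only.

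The genes, lists and rules were chosen with earlier results of these data known. Full values are given for the 6 genes with the most control-only sites, 6 of the 10 genes with at least 2 sites in both controls and none control-only (those with the most sites called in all 4 libraries), and the genes of the strongest gene-end, internal and control-only site. Values of other genes were picked after they were seen. The alternatives were stricter thresholds, lists of equal length, other overlap rules, other gene windows, each library left out, same-numbered pairs and exchanged groups. Removing Fabp3 and Acacb, and removing internal starts, were added after the data were seen.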

Additional observations from a re-analysis of the deposited data

How the results depend on the processing

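The sign of the difference in sites and the side of 1 on which the median level ratio lay held under all alternatives but the exchange of groups. The control-only share was 27.1% of all sites in both controls, 6.82% at gene ends and 43.2% inside genes, and with lists of equal length it was 15.9%, 2.5% and 27.9%, beside 13.5%, 2.48% and 19.1% over all genes. Leaving out each library in turn gave 32.2 to 39.0%, 11.4 to 14.0% and 45.9 to 59.5%, with a difference of 84.0 to 101.0 sites per library. Without control replicate 1 the shares were 38.4%, 12.5% and 56.6%, without control replicate 2 38.2%, 14.0% and 54.1%, without TBX5 KO replicate 1 32.2%, 11.4% and 45.9%, and without TBX5 KO replicate 2 39.0%, 11.4% and 59.5%. A site then needs fewer libraries to count as control-only, and over all genes the shares were, in the same order, 36%, 11.4% and 43.7%, then 40.2%, 14.8% and 47.5%, then 30.3%, 8.82% and 38.2%, then 36.7%, 11.5% and 45.9%. The internal share was above that of all genes in each setting where both were computed, but intervals were computed in the main setting only. The overall share was below it without control replicate 2, and the gene-end share lay below it in that setting, in the one that leaves out TBX5 KO 2, and with summits within 250 bp (6.45% against 6.99%). With gene ends of 2.5 kb, 12 of 68 gene-end sites (17.6%) and 25 of 61 internal sites (41.0%) were control-only, beside 11.6% and 30.9%. Without Fabp3 and Acacb, 41.7% of internal sites were.

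With the groups exchanged, as the genotype labels have it, the difference was −92.5 sites, the median level ratio 1.67, and each of the 3 shares 0.0%, of 101, 37 and 28 sites. In the fit with the replicate number as a block, the difference was 92.5 (exact sign-flip p = 0.5, the smallest 2 pairs allow) and on average 46.8% of the control sites of a pair were not called in its TBX5 KO library (50.6% and 42.9%). The labels give same-numbered libraries nothing in common but the number, and their deviations from the group means correlated with r of −0.0146 over 38019 sites and 0.154 over the 99 sites of these genes. The median level ratio stayed between 0.585 and 0.631 in the other alternatives. Depth limits what can be called to about 2.0 times the genome background, and sites that were not called were not shown to be unbound.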
